A study of Mus musculus with 6 samples.

Results

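Nuclear genes that encode subunits of the oxidative phosphorylation machinery were compared between Acly M-KO and Ctrl BMDMs after IL-4 treatment, and about 1 in 3 of them rose slightly in Acly M-KO. Of 77 subunit genes measured, 26 (33.8%) were called higher in Acly M-KO, where 12.4% of all genes tested were, 1 (1.3%) was called lower, where 12.6% of all genes were, and 50 did not pass the test. The differences were small. The median log2 fold change of the 77 genes was 0.13, and 1 gene, *Cox6a2*, also exceeded a log2 fold change of 0.58, the limit used by the study, which 2.98% of all genes passed in this direction. Short transcripts were higher in general, and with that length trend removed the median was 0.0723 and 18 subunit genes were called higher. The genes called higher lay in complex I (11 genes), complex III (2 genes), complex IV (5 genes) and ATP synthase (8 genes), and the gene called lower was *Sdhd* of complex II.

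The electron transport chain sits in the inner mitochondrial membrane. Complex I takes electrons from NADH and complex II takes them from succinate. Both pass them through ubiquinone to complex III, cytochrome c and complex IV, which reduces oxygen. Complexes I, III and IV pump protons as electrons pass, and ATP synthase lets the protons flow back to make ATP. A few subunits of complexes I, III, IV and ATP synthase are encoded by mitochondrial DNA, and all others come from nuclear genes scattered over the chromosomes. Macrophages treated with IL-4 are known for relying on oxidative metabolism.

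The subunits were chosen by gene symbol from the deposited read-count table. The rule itself uses no measured difference, but it was set with earlier results of these data known. Symbols starting with Ndufa, Ndufb, Ndufc, Ndufs, Ndufv, Uqcr, Cox4, Cox5, Cox6, Cox7, Cox8 or Atp5 were taken, with *Sdhb*, *Sdhc* and *Sdhd*. This gave 93 genes, from which 8 Ndufaf assembly factors and 1 pseudogene were dropped. A further 7 genes had fewer than 10 counts in at least 1 library. The 77 genes that remained, of 24445 genes in the table and 12023 genes tested, lay on 19 chromosomes and comprised 36 genes of complex I, 3 of complex II, 8 of complex III, 14 of complex IV and 16 of ATP synthase. *Ndufa4*, named as a complex I gene, encodes a protein found in complex IV and was counted there. With *Ndufa4* in complex I instead, 12 of 37 complex I genes and 4 of 13 complex IV genes were called higher, against 12.4% of all genes tested.

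BMDMs are bone marrow-derived macrophages. Here they came from female C57Bl/6J mice, were grown for 7 days in L929-conditioned medium and were then given IL-4 for 24 hours. Ages were not given in the sources used here. Acly M-KO mice carried *Acly* fl/fl with loxP sites around exon 9 and Lyz2-Cre, which is active in macrophages and also in other myeloid cells such as neutrophils. Ctrl mice were *Acly* fl/fl littermates, so the floxed allele was shared by both groups. *Acly* encodes ATP-citrate lyase, which makes cytosolic acetyl-CoA from the citrate that mitochondria export. Each group had 3 libraries. Nothing in the labels places them in separate mice or cultures, and the study describes them both as biological replicates and as technical replicates of pooled mice. The p-values therefore measure the spread between these libraries, which may be technical.

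Libraries held 12151975 to 15587283 counts. Levels are given as CPM, read counts scaled to the size of each library after the TMM normalization of edgeR. *Acly* itself measured 332, 321 and 350 CPM in Ctrl and 146, 134 and 136 CPM in Acly M-KO. The log2 fold change was -1.27 ± 0.0533 (SE) with an adjusted p of 5.22e-10, and the counts, which cover the whole transcript, do not separate exon 9. The 8 macrophage markers were all expressed, with a summed level of 12456 to 13034 CPM in Ctrl and 12181 to 12623 CPM in Acly M-KO. Of them, 1 (12.5%) was called higher (*Adgre1*, log2 fold change 0.33) and 3 (37.5%) lower, led by *Mertk* (log2 fold change -0.73). Over all genes tested, 12.4% were called higher and 12.6% lower. The summed level of 10 neutrophil markers was 33.3 to 35.9 CPM in Ctrl and 63.8 to 68.1 CPM in Acly M-KO. Of these 10, 5 passed the filter on low counts. In all 5, every Acly M-KO library was above every Ctrl library, as in 20.5% of all genes tested. *Mmp8* (log2 fold change 1.25), *S100a8* (0.85) and *S100a9* (0.59) were called higher, and *Ngp* (0.37) and *Ltf* (0.35) were not called. The others, *Ly6g*, *Mpo*, *Elane*, *Camp* and *Retnlg*, held at most 5 counts in any library. The 8 dendritic cell markers together reached 9.26 to 12.1 CPM per Ctrl library and 9.8 to 11.1 CPM per Acly M-KO library. Of these 8, 3 were tested. *Cd209a* was called higher (log2 fold change 1.65) from few counts, with no Ctrl library above 6 and no Acly M-KO library above 16. *Itgae* (-0.39) and *Zbtb46* (0.08) were not called. The untested *Flt3*, *Xcr1*, *Clec9a*, *Ccr7* and *Siglech* did not exceed 12 counts in any library. The part of these markers in the results on the subunits was not tested. In bulk RNA, fewer cells of a type and less RNA per cell cannot be told apart.

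A gene was called where the edgeR quasi-likelihood test gave a Benjamini-Hochberg adjusted p under 0.05 over all 12023 genes tested. The log2 fold change was above 0 for 66 subunit genes and below 0 for 11, whereas over all genes tested the median was 0.00. The Acly M-KO values lay entirely above the Ctrl values for 33 subunit genes, against 20.5% of all genes, and entirely below them for 2, *Sdhd* and *Ndufa5*, against 19.8% of all genes.

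The shift was also described library by library. As a share of each library, the 77 genes together took 0.507%, 0.467% and 0.487% in Ctrl, whereas they took 0.532%, 0.528% and 0.534% in Acly M-KO. Every Acly M-KO library was above every Ctrl library. Relative to the Ctrl mean of each gene, the median subunit gene stood at 1.05, 0.961 and 0.992 in Ctrl and at 1.1 in each library of Acly M-KO. The first Ctrl library lay above the Ctrl mean in 68 of the 77 genes, so part of the spread within Ctrl was shared by most subunits. Without that library 28 genes were called higher, without the second or the third Ctrl library 19, and without 1 Acly M-KO library 16 or 17. In each of 16 refits with another scaling, filter, tool, model or set of libraries, and with no fold limit, 13 of the 26 genes stayed called higher: *Ndufc1*, *Ndufa7*, *Ndufb9*, *Ndufa8*, *Ndufa10*, *Uqcrq*, *Cox6a2*, *Ndufa4*, *Cox7a2*, *Atp5e*, *Atp5g3*, *Atp5b* and *Atp5pb*.

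**Figure D1:**
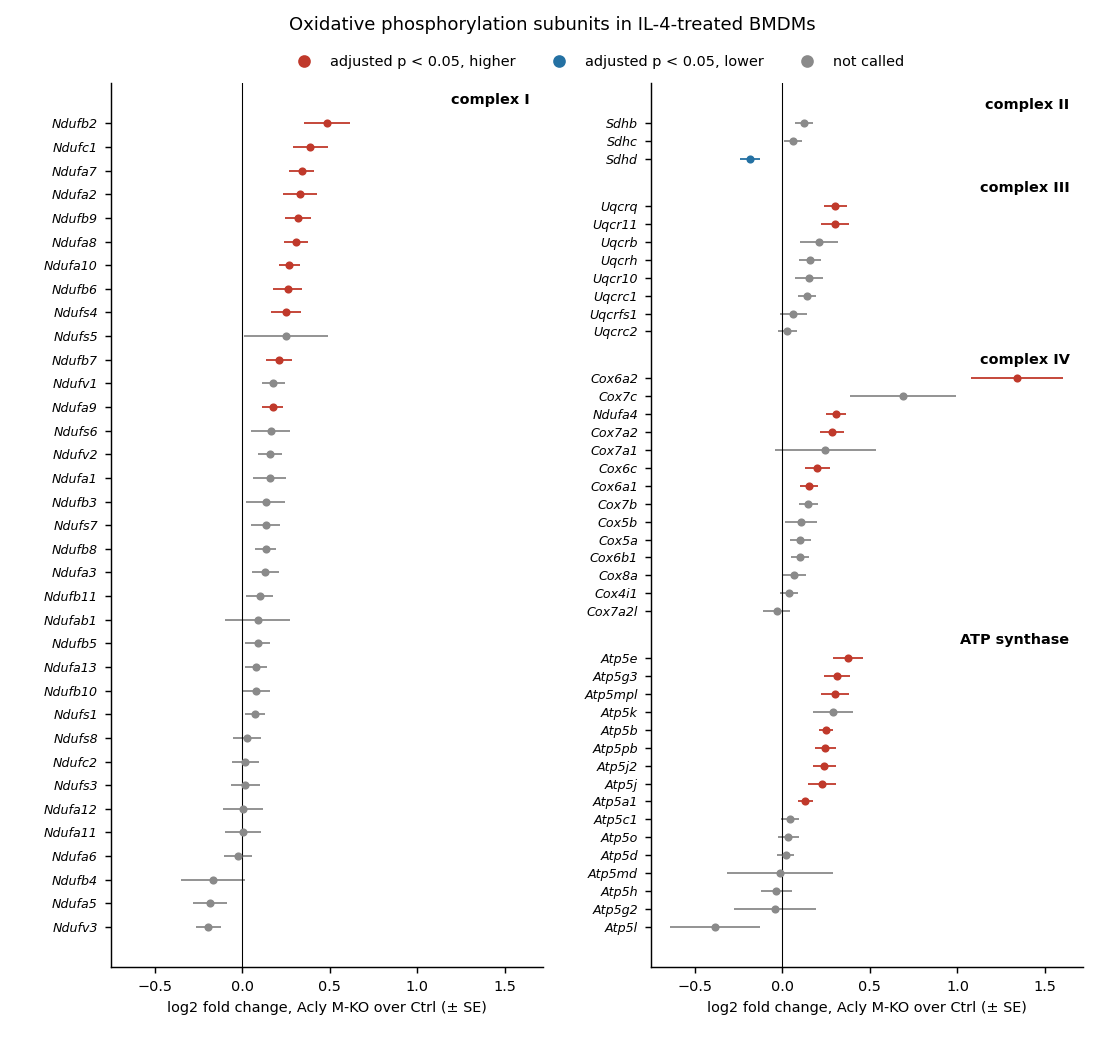
Log2 fold change of the subunit genes between Acly M-KO and Ctrl (horizontal axis, 3 libraries per group), ordered within each complex. Points are edgeR estimates and bars are ± 1 standard error. Most points lie to the right of 0, *Cox6a2* stands far to the right at 1.34, and *Sdhd* is the only gene called lower.

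Promoter sequences of 3 called genes are shown as examples and do not span the range of responses. They are *Atp5b*, which had the lowest adjusted p of all subunits, *Uqcr11*, with matches to more than 1 searched motif, and *Sdhd*, the only gene called lower. The sequences are from RefSeq on GRCm38.p6, from 250 bases before the annotated start to 30 bases after it, read 5′ to 3′ along the gene. Capitals mark matches, on either strand, to CCGGAAGT (the core of ETS factors such as GABPA), GCGCANGC (the core of NRF1), AAGATGGCG (YY1) or TCAAGGTCA (the element of oestrogen-related receptors).
Atp5b, chr10:128083057-128083336, plus strand: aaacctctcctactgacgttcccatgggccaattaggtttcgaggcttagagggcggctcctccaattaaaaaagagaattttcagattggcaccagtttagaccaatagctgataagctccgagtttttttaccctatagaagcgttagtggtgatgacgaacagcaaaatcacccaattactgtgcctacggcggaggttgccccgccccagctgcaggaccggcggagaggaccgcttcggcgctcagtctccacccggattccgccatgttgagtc
Uqcr11, chr10:80406792-80407071, minus strand: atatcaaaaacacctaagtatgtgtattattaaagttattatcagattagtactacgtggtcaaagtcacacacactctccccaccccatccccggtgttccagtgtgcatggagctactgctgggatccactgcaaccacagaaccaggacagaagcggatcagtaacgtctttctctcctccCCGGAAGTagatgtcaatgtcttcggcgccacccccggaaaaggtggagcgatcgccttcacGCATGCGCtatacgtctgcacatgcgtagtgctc
Sdhd, chr9:50603820-50604099, minus strand: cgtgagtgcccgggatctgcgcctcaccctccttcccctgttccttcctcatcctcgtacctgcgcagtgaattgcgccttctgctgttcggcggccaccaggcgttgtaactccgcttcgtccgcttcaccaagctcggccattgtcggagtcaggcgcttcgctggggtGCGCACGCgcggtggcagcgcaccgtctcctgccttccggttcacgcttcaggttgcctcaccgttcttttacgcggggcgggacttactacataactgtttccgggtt

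None of the 4 motifs was found in this window of *Atp5b*, nor in those of *Ndufa10* and *Ndufa4*, which were called higher and are not shown. The *Uqcr11* window held an ETS match that begins 66 bases before the start and an NRF1 match, on the opposite strand, that begins 4 bases before it. The *Sdhd* window held an NRF1 match. RefSeq sequences were at hand for 64 of the 77 genes. Of these 64, 22 (34.4%) held the NRF1 core, against 10.6% of 27025 genes in the same table, and 5 (7.81%) held the ETS core, against 4.12%. The YY1 core was found for 1 subunit gene, *Atp5j* (1.56% against 1.22%), and the ERR element for 1, *Atp5g3* (1.56% against 0.459%). Of the 19 genes called higher that had a sequence, 5 (26.3%) held the NRF1 core. The 27025 genes include many that were not among the 12023 genes tested, whereas all subunit genes were tested. No set of genes matched in level or base composition was compared, so these shares do not show a trait particular to the subunits. A match here describes letters and not a bound site. None of the 4 motifs contains another.

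Complex I is the largest of the complexes. Its 7 nuclear-encoded core subunits carry the flavin and the iron-sulphur clusters, and the other subunits measured are accessory. None of the 7 core genes was called, with a median log2 fold change of 0.07. Of the 29 accessory genes, 11 (37.9%) were called higher and none lower, with a median of 0.13. Over all genes tested, 12.4% were called higher and 12.6% lower, so a lack of calls among only 7 genes says little. The core transcripts were also longer, with a median of 1046 bases against 659 bases, and short transcripts were higher in general. Whether the core and accessory genes differ was not tested. The core gene nearest to a call was *Ndufv1*, the flavin-binding subunit that accepts electrons from NADH, which measured 53.2, 45.3 and 52.3 CPM in Ctrl and 57, 57.3 and 56.5 CPM in Acly M-KO (log2 fold change 0.18 ± 0.0642, adjusted p = 0.055). Its groups did not overlap, yet the call was missed. *Ndufs1*, the large iron-sulphur subunit, was also not called, with overlapping groups.

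The accessory gene with the lowest p was *Ndufa7* (NM_023202, chr17:33824572-33838317). It measured 38.8, 36.7 and 34.8 CPM in Ctrl and 50.2, 45.9 and 43.7 CPM in Acly M-KO. All Acly M-KO libraries were above all Ctrl libraries. The fold change was 1.27 (log2 0.34 ± 0.0703, adjusted p = 0.00239). *Ndufa10* (chr1:92439010-92473860), which resembles nucleoside kinases, measured 61.4, 57.5 and 55 CPM in Ctrl and 71.7, 71.5 and 66.6 CPM in Acly M-KO, again with no overlap. It rose 1.21-fold (log2 0.27 ± 0.0581, adjusted p = 0.00316). *Ndufa8* (chr2:36036326-36049406), a subunit of the membrane arm on the intermembrane space side, measured 39.1, 35.2 and 40.3 CPM in Ctrl and 46.5, 46 and 49.5 CPM in Acly M-KO. The groups were separated by more than their spread, and the fold change was 1.24 (log2 0.31 ± 0.0673, adjusted p = 0.00355).

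*Ndufb9* (chr15:58933756-58939488) measured 40, 33.9 and 36.5 CPM in Ctrl and 49.2, 42.6 and 46.3 CPM in Acly M-KO. The lowest Acly M-KO library exceeded the highest Ctrl library by a narrow margin, and the gene rose 1.25-fold (log2 0.32 ± 0.0752, adjusted p = 0.00602). Of its exonic bases, 28.6% lie under exons of another gene on the same strand, so part of its counts could belong to that gene. The other called genes of this complex were *Ndufb2*, *Ndufc1*, *Ndufa2*, *Ndufb6*, *Ndufs4*, *Ndufb7* and *Ndufa9*, with log2 fold changes from 0.18 for *Ndufa9* to 0.48 for *Ndufb2*. *Ndufb2* had the largest of these differences at 12.5, 8.59 and 10.2 CPM in Ctrl and 13.5, 16.1 and 14.5 CPM in Acly M-KO (SE 0.132, adjusted p = 0.0143), but 31.9% of its exonic bases lie under exons on the same strand and 18.5% under exons on the other strand. It lost its call without the second Acly M-KO library. *Ndufb7* was the weakest of the calls, with an adjusted p of 0.0492, and lost it in 13 of the 16 refits.

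Against this direction stood *Ndufv3*, a small subunit beside the flavin site. It had the highest level per kilobase of the complex I genes, 117 CPM per kb in Ctrl. *Ndufv3* measured 59.6, 61.9 and 51 CPM in Ctrl and 50.8, 47.8 and 52.2 CPM in Acly M-KO, so the lowest Ctrl library lay within the Acly M-KO range (log2 fold change -0.19 ± 0.071, adjusted p = 0.0576). *Ndufa5* measured 15.3, 14.6 and 14.7 CPM in Ctrl and 13.7, 12.8 and 12.8 CPM in Acly M-KO. Its groups did not overlap, but the test was not passed (log2 fold change -0.18 ± 0.0973, adjusted p = 0.193).

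**Figure D2:**
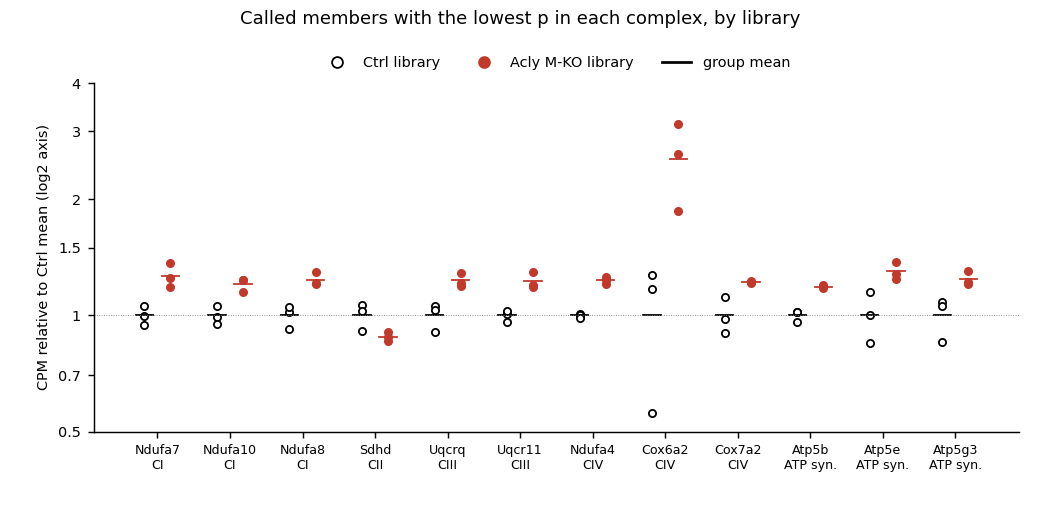
CPM of each library relative to the Ctrl mean of the gene (vertical log2 axis) for the called genes with the lowest p in each complex, at most 3 per complex. Open circles are Ctrl libraries, filled circles are Acly M-KO libraries and short lines are group means. The groups are separate for each gene shown, the Acly M-KO libraries of *Cox6a2* spread from 4.32 to 7.23 CPM, and *Sdhd* is the only gene whose Acly M-KO libraries lie below Ctrl.

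Complex II, succinate dehydrogenase, is encoded by nuclear genes alone. Its iron-sulphur subunit *Sdhb* (chr4:140961203-140979193) measured 96.5, 87.6 and 89.1 CPM in Ctrl and 97.6, 100 and 99.6 CPM in Acly M-KO. Each Acly M-KO library was the higher, but the difference did not pass the test (log2 fold change 0.12 ± 0.0521, adjusted p = 0.101). The membrane anchor *Sdhc* (chr1:171127165-171150603) measured 129, 120 and 130 CPM in Ctrl and 137, 127 and 133 CPM in Acly M-KO, with overlapping groups (log2 fold change 0.06 ± 0.0522, adjusted p = 0.443). The other membrane anchor, *Sdhd* (NM_025848, chr9:50596357-50603812), measured 112, 95.7 and 108 CPM in Ctrl and 95.2, 90.1 and 92.7 CPM in Acly M-KO. The highest Acly M-KO library lay just under the lowest Ctrl library. *Sdhd* fell by 0.18 on the log2 scale (SE 0.0594, adjusted p = 0.033), and this call was lost without the first or the third Ctrl library and without any of the 3 Acly M-KO libraries. Leaving out 1 library in turn moved its log2 fold change between -0.25 and -0.14. The flavoprotein *Sdha*, which the choice by symbol did not take, measured 284, 265 and 280 CPM in Ctrl and 307, 306 and 301 CPM in Acly M-KO and was called higher (log2 fold change 0.14 ± 0.0469, adjusted p = 0.04). The anchor called lower and the flavoprotein called higher belong to the same small complex.

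All 8 complex III genes had log2 fold changes above 0, with a median of 0.15, and 2 (25%) were called higher, against 12.4% of all genes tested. *Uqcrq* (NM_001326614, chr11:53427922-53430831), a small membrane subunit, measured 48.2, 47.2 and 41.4 CPM in Ctrl and 58.9, 55.4 and 54.4 CPM in Acly M-KO. The groups were well apart and the fold change was 1.23 (log2 0.30 ± 0.0665, adjusted p = 0.00365). *Uqcr11* (NM_025650, chr10:80402997-80406830), a very small subunit, measured 21.4, 21.8 and 20.3 CPM in Ctrl and 25.4, 27.5 and 25.1 CPM in Acly M-KO. It also rose 1.23-fold with no overlap (log2 0.30 ± 0.0793, adjusted p = 0.0124). This is the gene whose promoter held the ETS and NRF1 matches shown above.

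*Uqcrc1*, a core protein of complex III, measured 129, 128 and 139 CPM in Ctrl and 145, 142 and 150 CPM in Acly M-KO (log2 fold change 0.14 ± 0.0517, adjusted p = 0.0579). *Uqcrh*, the hinge protein beside cytochrome c1, measured 54, 49.3 and 53.3 CPM in Ctrl and 60.9, 58.9 and 55 CPM in Acly M-KO (log2 fold change 0.16 ± 0.0607, adjusted p = 0.0711). In both, the groups did not overlap and the call was narrowly missed. *Uqcrh* had the highest level per kilobase in this complex, 95.4 CPM per kb in Ctrl. The Rieske iron-sulphur protein *Uqcrfs1* and the other core protein *Uqcrc2* were not called, and their groups overlapped. *Cyc1*, which encodes cytochrome c1 and was not taken by the choice of symbols, measured 45.5, 41.6 and 48 CPM in Ctrl and 52.4, 54.3 and 54.8 CPM in Acly M-KO and was called higher (log2 fold change 0.26 ± 0.0633, adjusted p = 0.00809).

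Complex IV, cytochrome c oxidase, has subunits with tissue-specific isoforms, and these gave both its largest and its most nearly equal values. *Cox6a2* (NM_009943, chr7:128205435-128206387), the heart and muscle isoform of subunit 6a, measured 2.7, 2.94 and 1.29 CPM in Ctrl and 7.23, 6.05 and 4.32 CPM in Acly M-KO, from 40, 36 and 17 counts in Ctrl and 106, 94 and 63 counts in Acly M-KO. Each Acly M-KO library was above each Ctrl library, although the third library was the lowest in each group. *Cox6a2* rose 2.53-fold (log2 1.34 ± 0.264, adjusted p = 0.00164) and was the only called gene beyond the fold limit. Its log2 fold change stayed between 1.05 and 1.52 over the alternatives. The integrin gene *Itgad* on the opposite strand covers 10.3% of its exonic bases. *Itgad* held 7, 6 and 2 counts in Ctrl and 19, 11 and 14 counts in Acly M-KO and was called higher too (adjusted p = 0.0396). Whether the counting used strand is not given in the sources used here, so reads of the shared stretch may not be told apart. The counts on *Itgad* were fewer than those on *Cox6a2* in every library.

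The isoform that most tissues use, *Cox6a1* (chr5:115345642-115348981), measured 92.2, 95.8 and 86.4 CPM in Ctrl and 103, 99.9 and 102 CPM in Acly M-KO. It was far above *Cox6a2* in level, at 160 against 3.4 CPM per kb in Ctrl. *Cox6a1* rose 1.11-fold (log2 0.15 ± 0.0519, adjusted p = 0.0431) and lost its call in 10 of the 16 refits.

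For subunit 7a, *Cox7a2* (chr9:79755361-79759878), the broadly expressed isoform, measured 48.1, 38.9 and 42.3 CPM in Ctrl and 53, 52.2 and 52.7 CPM in Acly M-KO. The Acly M-KO libraries were nearly alike and all above Ctrl, and the gene rose 1.22-fold (log2 0.28 ± 0.071, adjusted p = 0.00877). The heart and muscle isoform *Cox7a1* measured 2.09, 1.06 and 1.97 CPM in Ctrl and 1.71, 2.06 and 2.4 CPM in Acly M-KO. These groups overlapped (log2 fold change 0.24 ± 0.288, adjusted p = 0.584), and a difference of the size seen for *Cox7a2* was not detectable at this depth. *Cox7a2l*, which encodes a factor that joins complexes III and IV into supercomplexes, measured 55.2, 44.6 and 52.1 CPM in Ctrl and 50.1, 45.7 and 53 CPM in Acly M-KO, with complete overlap (log2 fold change -0.03 ± 0.0779, adjusted p = 0.798).

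*Ndufa4* (NM_010886, chr6:11900292-11907497) was the most regular of the complex IV genes. It measured 43.5, 43.3 and 42.6 CPM in Ctrl and 52.2, 54.3 and 53.4 CPM in Acly M-KO. The gap between the groups was far wider than the spread within either, and the gene rose 1.24-fold (log2 0.31 ± 0.0563, adjusted p = 0.000999). Its paralogue *Ndufa4l2*, known as a HIF-1 target, had no counts in any library. *Cox4i1* (chr8:120668222-120674207), the common isoform of subunit 4, had the highest level per kilobase of complex IV, 303 CPM per kb in Ctrl. *Cox4i1* measured 243, 220 and 215 CPM in Ctrl and 232, 230 and 233 CPM in Acly M-KO, so that the Acly M-KO libraries lay inside the Ctrl range (log2 fold change 0.04 ± 0.0529, adjusted p = 0.664). The other isoform, *Cox4i2*, held 0 to 6 counts per library. *Cox8a* measured 85.6, 90.1 and 73.8 CPM in Ctrl and 88.1, 87 and 86.4 CPM in Acly M-KO, again inside the Ctrl range (log2 fold change 0.07 ± 0.0639, adjusted p = 0.476), while its isoforms *Cox8b* and *Cox8c* had no counts.

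*Cox6c* was the fifth called gene of the complex (log2 fold change 0.20 ± 0.0694, adjusted p = 0.0461) and lost its call in 9 of the 16 refits. *Cox7c* had the second-largest estimate of all 77 genes, a log2 fold change of 0.69, without a call (SE 0.301, adjusted p = 0.111). It measured only 2.03, 0.9 and 1.21 CPM in Ctrl and 2.32, 2.57 and 1.92 CPM in Acly M-KO, and the highest Ctrl library exceeded the lowest Acly M-KO library. Of the remaining subunit genes, *Cox6b2* held 0 to 4 counts per library and *Cox7b2* held none.

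ATP synthase had the highest share of genes called higher, 8 of 16 (50%), against 12.4% of all genes tested, and a median log2 fold change of 0.18. *Atp5b*, *Atp5e*, *Atp5g3* and *Atp5pb* kept the call in all 16 refits. *Atp5mpl*, *Atp5j2*, *Atp5j* and *Atp5a1* lost it in 2, 3, 7 and 7 refits. ATP synthase has a catalytic F1 head, a ring of c subunits, a peripheral stalk and other membrane subunits. Of the 5 F1 genes, 3 were called higher. *Atp5b* (NM_016774, chr10:128083273-128090391), the catalytic beta subunit, had the highest level per kilobase of all 77 genes, 334 CPM per kb in Ctrl. It measured 652, 615 and 654 CPM in Ctrl and 762, 753 and 768 CPM in Acly M-KO. The libraries of each group lay close together and far from the other group, and the gene rose 1.19-fold (log2 0.25 ± 0.0415, adjusted p = 0.000412), with leave-one-out values from 0.22 to 0.26. This is the gene whose promoter window, shown above, held none of the 4 motifs. *Atp5e*, the small epsilon subunit of the central stalk (chr2:174461072-174464105), measured 53.4, 39.4 and 46.6 CPM in Ctrl and 57.8, 59.6 and 64.1 CPM in Acly M-KO. The Ctrl libraries were the more spread, but none reached the Acly M-KO range, and *Atp5e* rose 1.3-fold (log2 0.38 ± 0.085, adjusted p = 0.00444).

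*Atp5a1*, the alpha subunit that alternates with beta in the head, measured 632, 583 and 627 CPM in Ctrl and 661, 668 and 689 CPM in Acly M-KO. It was called higher with a smaller difference (log2 fold change 0.13 ± 0.0443, adjusted p = 0.0405) and lost the call in 7 of the 16 refits. The gamma subunit *Atp5c1* and the delta subunit *Atp5d* were not called and their groups overlapped.

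Subunit c is made from 3 genes whose mature proteins are the same. *Atp5g3* (chr2:73908447-73911326) carried most of the counts, with 124, 97.5 and 121 CPM in Ctrl and 149, 139 and 138 CPM in Acly M-KO. No library overlapped, and *Atp5g3* rose 1.24-fold (log2 0.31 ± 0.0734, adjusted p = 0.0058). *Atp5g2* measured 3.31, 2.78 and 3.04 CPM in Ctrl and 2.18, 3.86 and 2.81 CPM in Acly M-KO, with full overlap (log2 fold change -0.04 ± 0.234, adjusted p = 0.912). *Atp5g1* held 6 to 21 counts per library and fell under the count minimum. The level of *Atp5g2* is uncertain, because 87.4% of its 50-base windows also occur in genes elsewhere.

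In the peripheral stalk, *Atp5pb* (chr3:105942698-105960099), subunit b, measured 102, 88.5 and 100 CPM in Ctrl and 113, 112 and 119 CPM in Acly M-KO. The groups did not overlap and the gene rose 1.19-fold (log2 0.25 ± 0.0579, adjusted p = 0.0059), although 21% of its exonic bases lie under exons of the opposite strand. *Atp5j*, coupling factor 6, was also called higher (log2 fold change 0.23 ± 0.0775, adjusted p = 0.0438). *Atp5h* and *Atp5o*, the stalk subunits d and OSCP, were not called. Of the other membrane subunits, *Atp5mpl* (log2 fold change 0.30 ± 0.0789, adjusted p = 0.0113) and *Atp5j2* (log2 fold change 0.24 ± 0.0664, adjusted p = 0.0159) were called higher. *Atp5l*, subunit g, had the lowest estimate of all 77 genes, a log2 fold change of -0.39, from 1.89, 2.94 and 3.11 CPM in Ctrl and 1.77, 2.19 and 2.06 CPM in Acly M-KO, with overlapping groups and no call (SE 0.255, adjusted p = 0.298).

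The subunits of one complex assemble in fixed amounts, yet their counted levels per kilobase differed widely, from 1.31 CPM per kb for *Ndufab1* to 334 CPM per kb for *Atp5b*, with a median of 47.1 CPM per kb in Ctrl. The rank of *Ndufab1* depends on the transcript length used, 3479 bases. Before division by length its Ctrl mean of 4.57 CPM was above that of *Cox7c*, 1.38 CPM. To describe the spread of levels, each transcript was split into all its 50-base windows. The share of windows that also occur in annotated genes at other places was then computed. Of the 77 genes, 36 shared at least 1 window with a gene or pseudogene elsewhere. Across the 77 genes, Spearman's rho between the level per kilobase and the shared share was -0.387, a description over genes that are not independent. The 10 genes with 30% or more shared windows had a median level of 5.17 CPM per kb, against 52.3 CPM per kb in the other 67. This limit was chosen after the values were seen. The 10 genes were *Ndufs5*, *Ndufs3*, *Ndufa12*, *Ndufb4*, *Uqcrb*, *Cox7c*, *Atp5md*, *Atp5h*, *Atp5g2* and *Atp5l*. None of them was called, where 12.4% of all genes tested were called higher, so that all 26 genes called higher were among the other 67. The median log2 fold change of the 10 genes was 0.00, against 0.15 in the other 67. Low counts limit this reading. *Ndufs5*, *Ndufb4*, *Cox7c*, *Atp5md*, *Atp5g2* and *Atp5l* had standard errors of 0.183 to 0.305. Changes as small as those of most called subunits were not detectable in these genes. How the counting treated reads that fit several places is not given in the sources used here, and its part in these levels was not tested. *Cox6a2* and *Cox7a1* were low with no shared window.

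**Figure D3:**
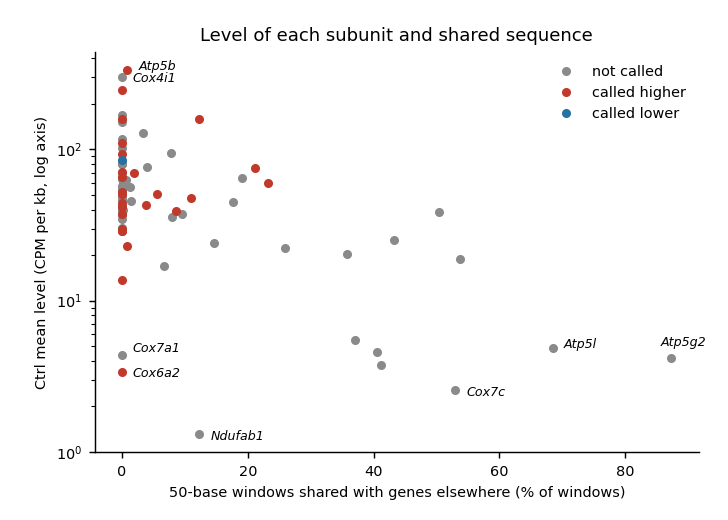
Mean Ctrl level of each of the 77 subunit genes in CPM per kb (vertical log axis) against the percentage of its 50-base windows that also occur in genes elsewhere (horizontal axis). Each point is 1 gene, coloured by its call, and genes named in the text are labelled. Points at 30% or more hold no called gene and have a median of 5.17 CPM per kb, with *Atp5h* the highest of them at 38.8 CPM per kb. *Cox6a2* and *Cox7a1* are low with no shared window. *Ndufab1* is the lowest point with 12.3% shared windows, a rank that depends on its transcript length of 3479 bases.

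Subunit transcripts are short, with a median of 722 bases against 2832 bases over all genes tested, and short transcripts were higher in Acly M-KO in general. Among all other tested genes, the median log2 fold change was 0.08 for transcripts up to 600 bases, 0.07 from 600 to 800 bases, 0.04 from 800 to 1200 bases and -0.03 above 5000 bases. Without the ribosomal protein genes it was 0.05 up to 600 bases and 0.05 from 600 to 800 bases. The 27 subunit genes of up to 600 bases had a median of 0.16 and the 18 subunit genes from 600 to 800 bases one of 0.13. The 13 subunit genes from 1200 to 2000 bases had a median of 0.14, where the other 2182 genes of that length had 0.01. When the length trend was removed from every library, an alternative chosen after the data were seen, 18 subunit genes were called higher against 13.2% of all genes, and their median log2 fold change was 0.07. In each length class that held subunit genes, their median was above that of the other genes.

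**Figure D4:**
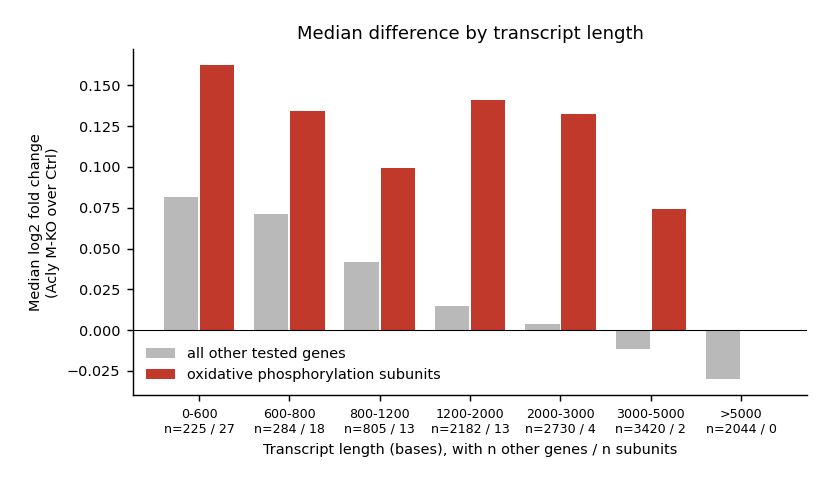
Median log2 fold change between Acly M-KO and Ctrl (vertical axis) by transcript length in bases (horizontal axis), for the subunit genes and for all other tested genes, with the number of genes in each class under the bars. The grey bars fall from 0.08 to -0.03 with length, and the red bars lie above them in every class that holds subunit genes.

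Genes that surround the complexes were read from lists of textbook members. Among 13 other subunits, carriers and electron donors, 3 (23.1%) were called higher (*Cyc1*, *Etfa* and *Sdha*) and 2 (15.4%) lower. Over all genes tested the shares were 12.4% and 12.6%. The median log2 fold change of the 13 genes was -0.05. *Etfa*, a subunit of the flavoprotein that takes electrons from fatty acid oxidation, measured 64.4, 58.2 and 67.7 CPM in Ctrl and 78.9, 77.4 and 70.9 CPM in Acly M-KO (log2 fold change 0.25 ± 0.0633, adjusted p = 0.00834). Its partner *Etfdh*, which hands those electrons to ubiquinone, was called lower, at 74.9, 69.7 and 70.5 CPM in Ctrl and 59.4, 62.3 and 65.6 CPM in Acly M-KO (log2 fold change -0.20 ± 0.0563, adjusted p = 0.0167). The neighbours of the chain therefore did not all take the direction of the subunits. *Nnt*, the proton-driven transhydrogenase that makes mitochondrial NADPH and that carries an inactivating deletion in standard C57BL/6J mice, was the other gene called lower (log2 fold change -0.27 ± 0.0787, adjusted p = 0.0189).

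Of 50 tested assembly factors, which help the complexes form without staying in them, 4 (8%) were called higher, a share below the 12.4% of all genes tested, and none lower, with a median log2 fold change of 0.07. The 4 were *Ndufaf1* for complex I, which measured 10.5, 10.6 and 10.5 CPM in Ctrl and 13.1, 12.6 and 13.2 CPM in Acly M-KO (log2 fold change 0.30 ± 0.105, adjusted p = 0.0467), and *Cox17*, *Cox14* and *Cox16* for complex IV. *Cox17*, a copper chaperone, had a log2 fold change of 0.26 ± 0.0804 (adjusted p = 0.0261) and *Cox14* one of 0.29 ± 0.0886 (adjusted p = 0.0268). *Ndufaf5*, the other complex I factor with a low p, had a log2 fold change of -0.47 ± 0.173 and was not called (adjusted p = 0.0566). No assembly factor of complex II, complex III or ATP synthase was called. The 2 lowest adjusted p among them were 0.66 (*Sdhaf1*) and 0.867 (*Sdhaf4*) for complex II, 0.0603 (*Uqcc2*) and 0.25 (*Ttc19*) for complex III, and 0.521 (*Atpaf1*) and 0.565 (*Tmem70*) for ATP synthase.

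Of 13 genes of coenzyme Q synthesis and handling, 3 (23.1%) were called higher, against 12.4% of all genes tested, and none lower. *Coq10b*, a coenzyme Q-binding protein, had the largest difference at 14.7, 14.5 and 12.6 CPM in Ctrl and 19.4, 21.4 and 22.7 CPM in Acly M-KO (log2 fold change 0.61 ± 0.0985, adjusted p = 0.000353). *Coq9* (log2 fold change 0.22 ± 0.0743, adjusted p = 0.0445) and *Coq10a* were the others. Of the 14 tested regulators of mitochondrial gene expression, 1 (7.14%) was called, and their median log2 fold change was -0.02. That gene was *Gabpb2*, a partner of the ETS factor GABPA, at 80.7, 86.9 and 78.1 CPM in Ctrl and 97.5, 95.1 and 97.2 CPM in Acly M-KO (log2 fold change 0.24 ± 0.0526, adjusted p = 0.00361). *Pprc1*, a PGC-1-related coactivator, followed without a call (log2 fold change 0.18 ± 0.0693, adjusted p = 0.072), and *Ppargc1a* held 0 to 4 counts per library.

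Mitochondrial and cytosolic ribosomal protein genes are also short. Of the 78 mitochondrial ribosomal protein genes, 13 (16.7%) were called higher, against 12.4% of all genes tested, and none lower. Their median log2 fold change was 0.07. The lowest p belonged to *Mrpl54* (log2 fold change 0.64 ± 0.0853, adjusted p = 6.25e-05) and *Mrps6* (log2 fold change 0.76 ± 0.106, adjusted p = 9.32e-05). Of the 77 tested cytosolic ribosomal protein genes, 18 (23.4%) were called higher and none lower, with a median of 0.12. *Rplp0* (log2 fold change 0.34 ± 0.0452, adjusted p = 6.67e-05) and *Rps15a* (log2 fold change 0.39 ± 0.0634, adjusted p = 0.000385) had the lowest p. The share called among the subunits, 33.8%, was the larger, but the difference between the lists was not tested. In the opposite direction, 3 of 8 HIF-1 target genes that act on mitochondria (37.5%) were called lower, against 12.6% of all genes tested. The other 5 were not called. *Bnip3*, a mitophagy receptor, measured 18.9, 21 and 19.8 CPM in Ctrl and 8.8, 8.04 and 8.02 CPM in Acly M-KO (log2 fold change -1.26 ± 0.103, adjusted p = 4.94e-07). *Pdk1*, the kinase that keeps pyruvate out of the TCA cycle, had a log2 fold change of -0.75 ± 0.0827 (adjusted p = 9.48e-06). *Mxi1* was the last of the 3 called lower.

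**Figure D5:**
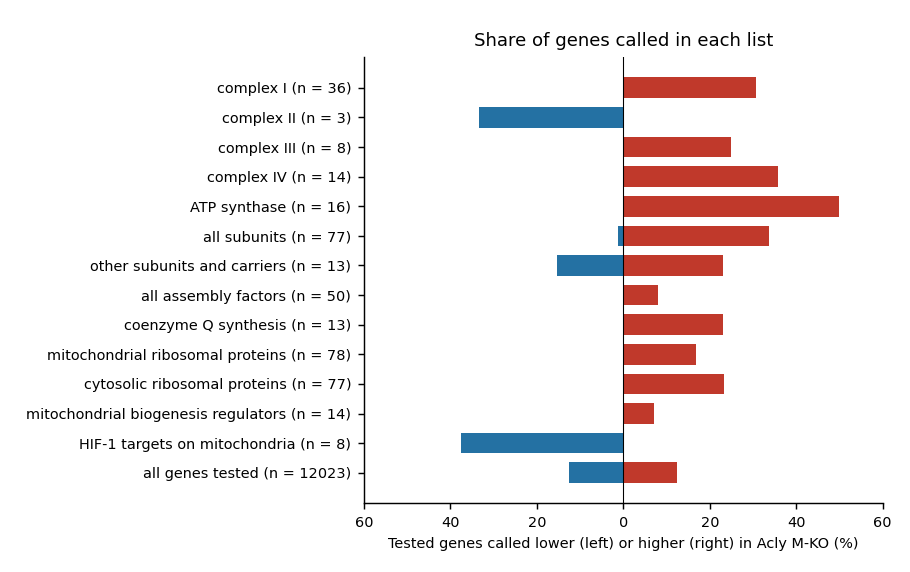
Percentage of tested genes called higher (to the right) or lower (to the left) in Acly M-KO at an adjusted p under 0.05, for each complex, all 77 subunit genes, the related lists and all 12023 genes tested. The number tested stands beside each name. ATP synthase reaches 50% on the right, and complex II and the HIF-1 targets appear on the left.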

How the data were processed

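RNA was sequenced from IL-4-treated BMDMs of Ctrl and Acly M-KO mice, with 3 libraries per group. The authors made strand-specific KAPA libraries, aligned reads to mm10 with STAR 2.5.2b (CASAVA 1.8.2 is also named in the submitters' processing notes) and deposited raw counts per RefSeq transcript. The counting program is not given in the sources used here.

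Rows were paired with symbols through RefSeq GRCm38.p6 (35440 of 35745 rows) and GENCODE M21 (188 rows). The 117 rows without a gene held 0.37% to 1.38% of counts and were left out. Each of 24445 genes was represented by its row with the highest total, a choice made once the table proved to hold transcripts and not genes. Kept rows held 12151975 to 15587283 counts per library, and counts of replicates differed by more than sampling noise (chi-square per gene 2.32 to 7.55). The test was the quasi-likelihood test of edgeR 4.0.16 (R 4.3.3, filterByExpr, TMM normalization, genotype as sole term) and Benjamini-Hochberg adjustment over 12023 genes. The common biological coefficient of variation was 0.0588. In data simulated over 12023 genes, known changes were given only to some genes with higher expected counts. Of these, 66% of changes of 0.3 and 99% of changes of 0.8 on the log2 scale were recovered. There were 9 false calls among 174. Low-count genes, and changes as small as the median of the subunits, were not tried. With 3 libraries against 3, an exact permutation test of a single gene cannot go below 0.10, so none is given.

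Lengths, positions and overlaps come from RefSeq and GENCODE M21 on GRCm38. The values of 1 subunit gene are not reported here, though it stays in the counts and medians. Subunits encoded by mitochondrial DNA were not analysed here, nor were naive BMDMs. The subunits and all lists were chosen with earlier results of these data known. Full values were given for *Acly*, subunits beyond the fold limit, the 4 lowest p and the highest level per kilobase in each complex, isoform families and complex II, and the 2 lowest p of each other list. Alternatives were DESeq2 1.42.0, limma-voom (limma 3.58.1), other scalings, other filters, the mean over transcript rows, a replicate term, a fold limit and the removal of each library. Removal of the length trend was added after the data were seen.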

Additional observations from a re-analysis of the deposited data

How the results depend on the processing

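Over 16 refits with no fold limit, no subunit called higher changed direction, and 13 of the 26 kept their call in each. With the fold limit, 1 of those 13 remained, *Cox6a2*. The number called higher stayed within 1.5 times of 26, except with the fold limit of 0.58 on the log2 scale (1 gene) and without single libraries (16 to 28). The number called lower was 1 and became 2 with library totals only, with no filter on low counts and with the length trend removed, 0 with the fold limit, and 0 to 1 without single libraries.

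The median log2 fold change of the subunits moved from 0.13 to 0.0723 with the length trend removed, and that of complex I from 0.13 to 0.0659, of complex III from 0.15 to 0.0863, of complex IV from 0.15 to 0.0762 and of ATP synthase from 0.18 to 0.14. The cause of the length trend was not tested. Without single libraries, the median of complex III ran from 0.11 to 0.20 and that of ATP synthase from 0.14 to 0.20. Other alternatives moved the medians by less than 1 SD between libraries.

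Sign changes among named subunits concerned genes that were not called. Without single libraries, the log2 fold change ran from -0.0299 to 0.20 for *Ndufab1*, -0.0107 to 0.0576 for *Ndufs3*, -0.0423 to 0.0519 for *Ndufa12*, -0.0489 to 0.13 for *Uqcrfs1*, -0.0276 to 0.0751 for *Uqcrc2*, -0.0148 to 0.12 for *Cox8a*, -0.0034 to 0.0898 for *Cox4i1*, -0.12 to 0.0332 for *Cox7a2l*, -0.0082 to 0.0691 for *Atp5o*, -0.0072 to 0.0374 for *Atp5d*, -0.19 to 0.28 for *Atp5md*, -0.0958 to 0.0255 for *Atp5h* and -0.29 to 0.13 for *Atp5g2*. With library totals only, it was -0.0010 for *Ndufs3*, -0.0146 for *Ndufa12* and -0.0003 for *Atp5d*. With the length trend removed, it was -0.0247 for *Ndufs3*, -0.0900 for *Ndufa12*, -0.0295 for *Cox8a*, -0.0349 for *Cox4i1* and -0.0268 for *Atp5o*. With no filter on low counts, it was -0.0011 for *Ndufa12*. With limma-voom, it was 0.0136 for *Atp5md*.

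The replicate numbers did not pair the libraries, since deviations of same-numbered libraries correlated at -0.0651, 0.0498 and -0.0314. With a replicate block, 22 subunits were called higher and 1 lower, and the median log2 fold change was 0.14. Subunits under a few CPM are limited by depth. For *Cox7a1*, *Atp5g2* and *Atp5md* the standard errors reached 0.234 to 0.305, so changes as small as those of most called subunits were not detectable. The larger change of *Cox6a2* was called at a similar standard error (0.264).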
